A study of Mus musculus with 6 samples.

Results

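Mucin-type O-glycosylation begins in the Golgi, where a polypeptide GalNAc-transferase moves N-acetylgalactosamine from its UDP-linked donor onto a serine or threonine of a protein. A family of these enzymes, encoded by the Galnt genes, shares the work: some act on bare peptide and start the glycan, whereas others prefer a peptide that already carries GalNAc nearby and fill in further sites. Core 1 synthase, encoded by C1galt1, then adds galactose to make the core 1 disaccharide, from which most longer O-glycans of the gut lining are built. The colon depends on this pathway for its mucus, and inherited loss-of-function changes in human GALNT12 have been linked to colorectal cancer.

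The expression of 9 Galnt genes and C1galt1 was examined in mouse colorectal cancer cells, on arrays that name 18193 genes. The 10 genes were taken by gene symbol, with all of their 26 probe sets, but the set as a whole was chosen on an earlier reading of the same data, in which Galnt12 had the largest fall of any gene tested. Its values in this contrast are therefore a description, and no p-value is given for a member. All 6 arrays held total RNA from iKAP primary cultured cells, which carry the number 3346 on every array. The iKAP mouse is an engineered model of colorectal cancer that carries conditional Apc and Trp53 alleles, and both groups share this background. In 3 arrays the cells had been made to express GFP stably from a pLenti6.3 plasmid (GFP control), and in 3 the IRF2 open reading frame from the same kind of plasmid (labelled IRF2). The medium was DMEM with 5% of a tetracycline-free additive. The labels leave unsaid whether replicates were grown as separate cultures, and p-values therefore reflect array-to-array spread that may be technical.

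The reading of Irf2 itself was taken first. Irf2, an interferon-responsive transcription factor, read 65.4, 60.5 and 62.0 on the GFP control arrays and 37.0, 36.6 and 35.2 on those labelled IRF2, or -0.79 on the log2 scale with SE 0.06 (adjusted p = 1.73e-07 in limma). These values come from the only probe set named to Irf2. Its suffix, _s_at, is given by the maker to probe sets able to read more than 1 transcript. Whether it reads the introduced open reading frame was not tested, so the total level of Irf2 transcript cannot be read from it. The groups did not overlap. The direction of this probe set goes against the label, so every direction below is that of arrays labelled IRF2. Array medians lay between 18.2 and 18.7. Transferrin receptor control probe sets, whose 3' to 5' ratio is a measure of RNA integrity, gave ratios from 3.61 to 3.78 in the controls. On the arrays labelled IRF2 these ratios ran from 3.81 to 4.47. The beta-actin ratio overlapped, at 1.0009 to 1.0172 in the controls and 0.99636 to 1.0229 on the arrays labelled IRF2. The 18S rRNA intensity overlapped too, at 446 to 529 and 500 to 591. The part of these control probe sets in the results was not tested. Of 10 colon epithelial markers, Krt20, Vil1 and Cdx1 lay under the intensity filter. Of the 7 tested, Krt8 and Krt18 were higher, and Epcam, Cdh1 and Cdh17 were lower, with log2 fold changes of -0.81, -0.75 and -0.57 (SE 0.11, 0.04 and 0.03). The summed intensity of the 10 ran from 14535 to 14686 in the controls and from 16030 to 16165 on the arrays labelled IRF2. Most of the sum was Krt8, Krt18 and Krt19, with means of 3533, 5015 and 5422 in the controls and 4999, 5306 and 5335 on the arrays labelled IRF2. Of 8 goblet cell markers none was called among the 6 tested (1 had an unadjusted p under 0.05, by limma, the only tool run), and their summed intensity was 140 to 156 and 148 to 152. Of the 7 immune markers on the array, 4 were tested and Cd14 alone was called, higher; Ptprc and Itgam lay under the filter, and the sums ran from 254 to 288 and from 281 to 294. Of 8 stromal markers, 5 were tested, with Pdgfra higher and Pdgfrb lower (sums 147 to 155 and 152 to 161). Of 6 endothelial markers, 3 were tested and Egfl7 was lower (sums 97.3 to 108 and 90.5 to 102). The part of these markers in the results was not tested. Fewer cells of a type and less RNA per cell cannot be told apart in such bulk samples.

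Intensities are linear probe set values as deposited, and changes are log2 fold changes of labelled IRF2 over GFP control with the standard error (SE) of the limma fit. A gene or probe set is named as called where its Benjamini-Hochberg adjusted p in that fit was under 0.05. Where probe sets of a gene were several, the brightest on average stood for it. All 10 genes had a probe set above the intensity filter of 11.3, the 40th percentile of the array. Of the 10, 5 were called lower (Galnt3, Galnt4, Galnt7, Galnt11 and Galnt12), where 19.8% of the 12795 genes tested were called lower, and none was called higher, where 16.5% of all genes were; at an unadjusted p under 0.05 the counts were 6 lower and 1 higher. Because the contrast chose the set, nothing is read from these counts. The median log2 fold change was -0.14 over the 10 genes and -0.0007 over all genes tested.

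**Figure D1:**
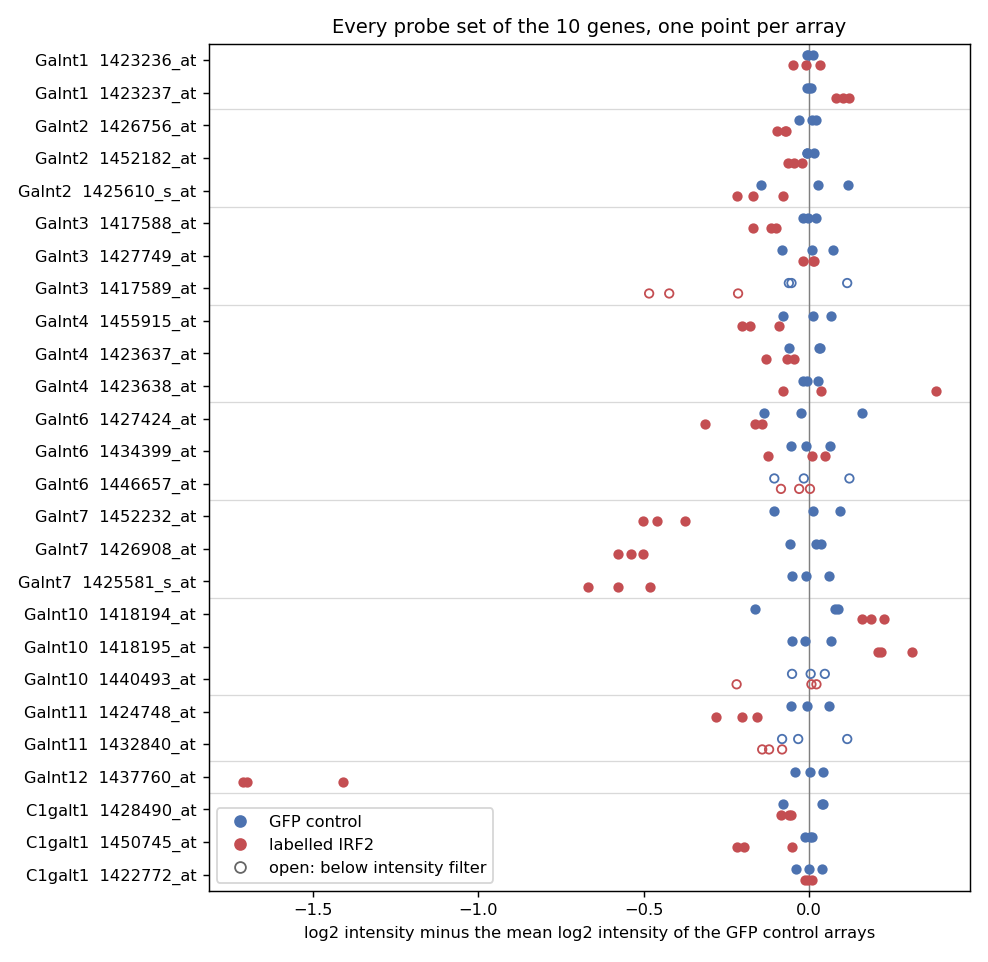
Each row is 1 of the 26 probe sets and each point 1 array, placed by its log2 intensity minus the mean log2 intensity of the 3 GFP control arrays; blue points are GFP control, red points labelled IRF2, and open points probe sets below the intensity filter. The Galnt12 points lie farthest left, the 9 red points of the 3 Galnt7 probe sets lie left of every blue point of their row, and the 2 filled rows of Galnt10 lie to the right.

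At the level of single probe sets, 22 of the 26 were above the filter. Of these, 8 were called lower and 2 higher, beside 15.7% and 13% of all 27022 probe sets tested. In 14 of the 22 the groups were fully separate, 11 lower and 3 higher, where 40.5% of all tested probe sets had groups that did not overlap. The SD of log2 intensity within a group had a median of 0.059 over these 22 and 0.067 over all probe sets tested. Without the replicate 1 array labelled IRF2, 6 of the 22 were called in place of 10.

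The enzymes that prefer glycopeptides were Galnt4, Galnt7, Galnt10 and Galnt12, a grouping made from background knowledge after the values were seen. Of these 4 genes, 3 were called lower, where 19.8% of all genes tested were, and their log2 fold changes spread from -1.61 to 0.19. The set was chosen on Galnt12, which is in this group, so nothing is read from the count. Galnt12, which belongs with Galnt4 to 1 branch of the family and is known for its expression in the digestive tract, had the lowest value of all genes tested. Its single probe set (1437760_at) read 49.5, 48.1 and 46.7 on the GFP control arrays and 14.7, 18.1 and 14.8 on the arrays labelled IRF2. The groups were far apart: every array labelled IRF2 lay far under the lowest control. The mean went from 48.1 ± 1.41 to 15.9 ± 1.94 (SD, n = 3 each), a 3.04-fold lower level and a log2 fold change of -1.61 (SE 0.09). The arrays labelled IRF2 sat close to the intensity filter of 11.3, where the treatment of low values matters. Adding 16 to each intensity gave -1.01 (SE 0.05), and under a filter at the 60th percentile the gene was not tested. No other probe set was named to Galnt12, so this value has no check within the array. In RefSeq its span overlaps that of a predicted gene, Gm52731.

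Galnt7, an enzyme that acts almost only on peptides already carrying GalNAc, had 3 probe sets, and all 3 were lower. Its brightest probe set (1452232_at) read 274, 314 and 297 in the controls and 214, 208 and 227 on the arrays labelled IRF2 (log2 fold change -0.45, SE 0.05). A separate probe set (1426908_at) went from 195, 193 and 183 to 135, 128 and 131 (-0.54, SE 0.04). The last (1425581_s_at, a suffix that the maker gives to probe sets able to read more than 1 transcript) went from 116, 113 and 122 to 78.2, 83.6 and 73.4 (-0.58, SE 0.06). In none of the 3 did the groups overlap. Of all genes tested, 4.55% had a change at least as large in size as that of the brightest probe set, and the call held under each of the 13 alternative settings. Galnt7 lies on chromosome 8, as does Galnt2.

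Galnt10, the close relative of Galnt7 with the same preference for glycopeptides, was the only one of the 10 genes with a positive value in the gene-level fit. Its brightest probe set (1418194_at) read 47.2, 39.9 and 47.5 in the controls and 50.9, 52.2 and 49.9 on the arrays labelled IRF2 (log2 fold change 0.19, SE 0.07), and was not called. The replicate 2 control was the low one: without it the value was 0.11, whereas without the replicate 1 or the replicate 3 control the gene was called, at 0.23 in both. Its other bright probe set (1418195_at) went from 31.8, 31.0 and 33.6 to 39.9, 37.1 and 37.3 (0.25, SE 0.07) and was called higher, a call lost without the replicate 2 control or the replicate 1 array labelled IRF2. The groups did not overlap in either. Its dimmest probe set, at 6.49 to 7.80 over the 6 arrays, was under the filter.

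Galnt4, which acts on glycopeptides and on some bare peptides, was slightly lower in its brightest probe set (1455915_at). That probe set read 335, 356 and 370 against 307, 313 and 332 (log2 fold change -0.16, SE 0.04), with no overlap between the groups. A second probe set gave -0.08 (SE 0.05) and a dim one 0.11 (SE 0.11), neither of them called, with overlapping groups in both. The call was lost in the mean of the 3 probe sets (-0.04) and without the intensity trend. In the fit of single probe sets it was also lost without the replicate 3 control or the replicate 1 array labelled IRF2. In RefSeq the span of Galnt4 overlaps that of Poc1b, a centriole gene, which was not called (-0.02, SE 0.05, limma adjusted p = 0.768).

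**Figure D2:**
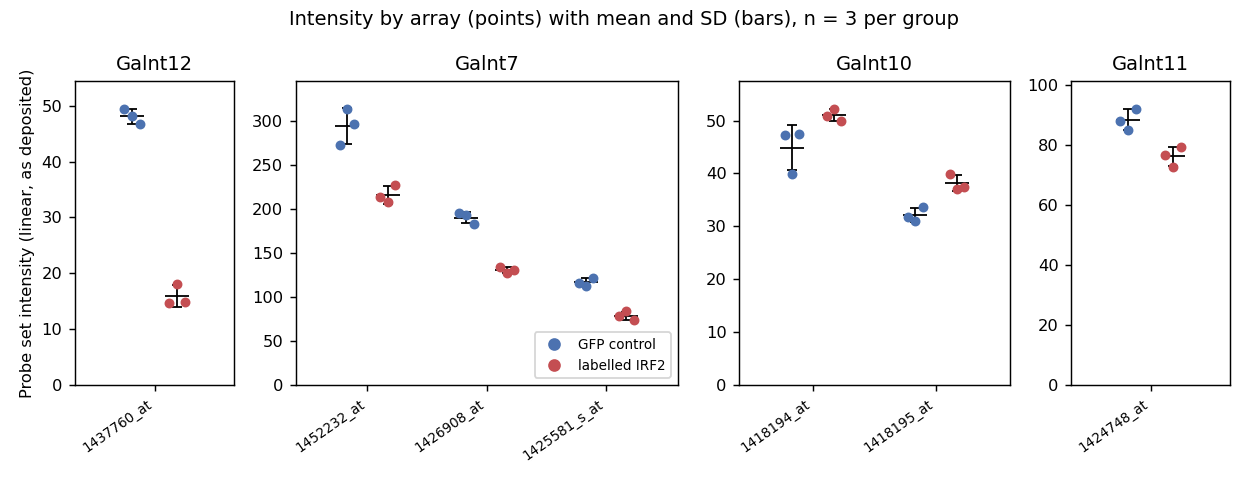
Linear intensity of each tested probe set of Galnt12, Galnt7, Galnt10 and Galnt11, with 1 point per array (blue GFP control, red labelled IRF2) and bars for the mean and SD of 3 arrays; each panel has its own scale from 0. The groups are separate in all 7 probe sets shown, lower on the arrays labelled IRF2 for Galnt12, Galnt7 and Galnt11 and higher for Galnt10.

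The enzymes that start glycans on bare peptide were Galnt1, Galnt2, Galnt3, Galnt6 and Galnt11. Of these 5, Galnt3 and Galnt11 were called lower, where 19.8% of all genes tested were, and the log2 fold changes ran from -0.21 to -0.01. Galnt11, which is known to glycosylate the Notch1 receptor, read 88.0, 85.1 and 92.1 in the controls and 76.7, 72.7 and 79.2 on the arrays labelled IRF2 (1424748_at; log2 fold change -0.21, SE 0.06). The groups did not overlap, and 18.8% of all genes had a change at least this large. Its other probe set, at 6.27 to 7.49, was under the filter, and in the mean of both the call was lost (-0.16). In the fit of single probe sets the call was lost without the replicate 3 control or the replicate 2 array labelled IRF2. Galnt3, which protects the hormone FGF23 from cleavage, read 270, 274 and 267 against 240, 249 and 252 in its brightest probe set (1417588_at; -0.13, SE 0.03). Its second probe set did not follow: it read 41.6 ± 2.23 and 41.7 ± 0.537 (SD, n = 3 each), a log2 fold change of 0.0023. The third read 12.0, 12.0 and 13.5 against 10.8, 8.94 and 9.32, under the filter and without overlap.

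The remaining initiating genes, Galnt1, Galnt2 and Galnt6, were not called. Galnt1, expressed in most tissues, gave -0.01 (SE 0.03) in its brightest probe set (1423236_at), at 622 ± 3.99 and 618 ± 17.2 (SD, n = 3 each). In its other probe set (1423237_at) it read 443, 439 and 441 against 466, 474 and 480 (0.10, SE 0.03), which was called higher with no overlap, except without the intensity trend; the sign of the gene thus turned with the probe set. Galnt2, also expressed in most tissues, had log2 fold changes of -0.16 to -0.04 in its 3 probe sets, and none was called. The dimmest (1425610_s_at) was called lower with the replicate block and without the replicate 2 control. In 2 of these 3 the groups did not overlap: the brightest (1426756_at) read 212, 218 and 219 against 206, 205 and 202. Galnt6, a close relative of Galnt3, read 12.1, 13.1 and 14.9 against 11.9, 12.1 and 10.7 (1427424_at; -0.21, SE 0.10) and was not called. The groups did not overlap, and the readings lay on either side of the filter of 11.3.

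C1galt1 was near its control level in most of its probe sets. The brightest (1428490_at) read 260, 282 and 282 in the controls and 258, 263 and 264 on the arrays labelled IRF2 (log2 fold change -0.07, SE 0.04; not called, with overlapping groups). Without the replicate 1 control it was called lower, at -0.11. A second (1450745_at) read 243, 240 and 242 against 211, 233 and 208 (-0.16, SE 0.04) and was called lower, a call that was lost in 4 of its 12 alternatives, among them leaving out the replicate 3 control or the replicate 1 or replicate 3 array labelled IRF2. The third stood at 106 ± 2.92 and 106 ± 0.834 (SD, n = 3 each). Its chaperone C1galt1c1, without which core 1 synthase does not fold, stood at 0.08 (SE 0.03; adjusted p = 0.0752 in limma) and was not called.

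**Figure D3:**
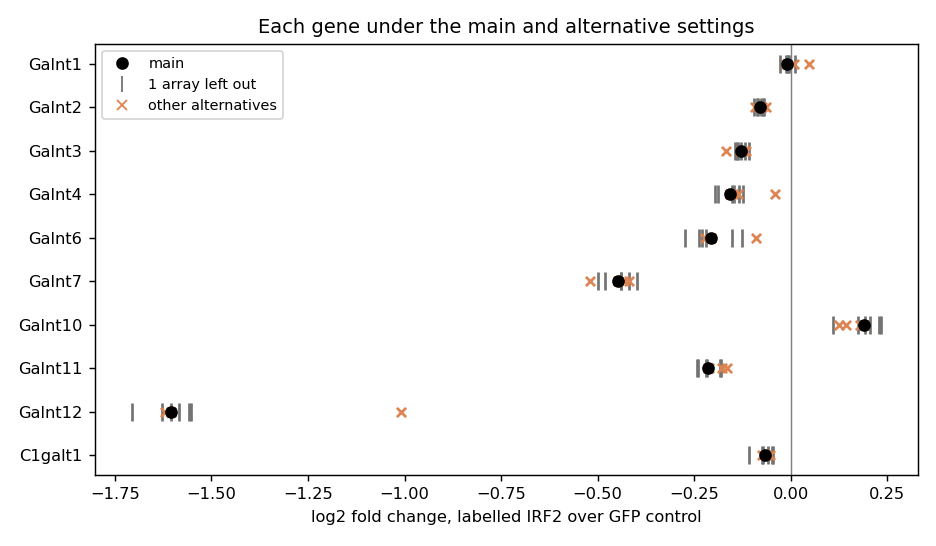
Log2 fold change of each of the 10 genes as reported (black point), with 1 array left out (grey ticks) and under the other alternatives (orange crosses). Galnt12 stays leftmost, between -1.71 and -1.01, Galnt7 runs from -0.52 to -0.40, Galnt10 stays above 0, and Galnt1 crosses 0.

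Sequence upstream of the transcription start, from RefSeq (GRCm38.p6), was examined for 6 of the 10 genes: Galnt3, Galnt6, Galnt7, Galnt10, Galnt11 and C1galt1. Windows of Galnt1, Galnt2, Galnt4 and Galnt12 were not examined, so nothing is said of their motifs. Those of Galnt7 and Galnt10 are shown because these relatives differed in sign, and that of Galnt11 because it was called lower with a single bright probe set. Each is the 250 bases before a start, the first of 2 listed for Galnt11, 5' to 3' on the gene's strand: chr8:57653056-57653305 (minus strand) for Galnt7, chr11:57645192-57645441 (plus strand) for Galnt10 and chr5:25222622-25222871 (plus strand) for Galnt11. Capitals mark the motifs found.

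Galnt7: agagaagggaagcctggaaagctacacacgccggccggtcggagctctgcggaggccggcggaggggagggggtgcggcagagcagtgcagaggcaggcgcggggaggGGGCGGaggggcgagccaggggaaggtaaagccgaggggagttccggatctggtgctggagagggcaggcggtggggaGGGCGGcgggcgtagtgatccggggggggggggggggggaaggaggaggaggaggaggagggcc
Galnt10: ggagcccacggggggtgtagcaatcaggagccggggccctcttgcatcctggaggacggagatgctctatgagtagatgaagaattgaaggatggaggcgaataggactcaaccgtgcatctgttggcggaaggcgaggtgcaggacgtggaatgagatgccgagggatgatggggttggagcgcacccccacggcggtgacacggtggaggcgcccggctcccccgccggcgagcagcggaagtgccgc
Galnt11: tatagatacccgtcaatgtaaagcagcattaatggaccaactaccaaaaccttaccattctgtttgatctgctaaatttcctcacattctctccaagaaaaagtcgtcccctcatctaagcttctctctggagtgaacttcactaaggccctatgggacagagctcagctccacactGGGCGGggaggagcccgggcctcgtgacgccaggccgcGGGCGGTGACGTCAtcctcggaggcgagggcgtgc

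The motifs searched, on both strands, were the paired IRF half-sites GAAANNGAAA, the GC box GGGCGG, the cyclic AMP response element TGACGTCA and the E-box CACGTG. No window of the 6 genes held the IRF pair, which was present in 2.98% of the 32851 upstream windows of this length that were searched. Galnt7 held 2 GC boxes and Galnt10 none, with a GC box in 32.7% of all windows. Galnt3 held 3, C1galt1 5 and Galnt6 3 at 1 of its 2 starts, so called and uncalled genes alike had them. The Galnt11 window shown held 2 GC boxes and 1 cyclic AMP response element, which 1.55% of all windows held and which directly follows 1 of its GC boxes. The window of its other start held none of the motifs and had a GC content of 42.8%. The E-box, in 6.02% of all windows, was in none of the 6 genes. The GC content was 73.6% for Galnt7, 64.4% for Galnt10 and 54% for the Galnt11 window shown, against a median of 52.4% over all windows. A match is only a match of letters.

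The genes on either side of Galnt12 on chromosome 4 were then compared. Of the 8 nearest tested genes, 4 on each side in RefSeq order, 4 were called lower, where 19.8% of all genes were, and the only positive value was that of Alg2. Coro2a, which encodes an actin-binding coronin, read 28.5 ± 1.45 and 20.7 ± 2.19 (SD, n = 3 each), a difference of -0.47 on the log2 scale (SE 0.09, limma adjusted p = 0.000698). Anp32b, a histone chaperone, Nans, which makes sialic acid, and Sec61b, a translocon subunit, differed by -0.10, -0.08 and -0.06 (SE 0.02, 0.03 and 0.02; limma adjusted p = 9e-04, 0.0324 and 0.0156). The nearest on each side, Tbc1d2 and Tgfbr1, were not called, at -0.16 (SE 0.07) and -0.03 (SE 0.03), and neither were Alg2 (0.04, SE 0.06) and Nr4a3 (-0.11, SE 0.08). The call of Nans was lost in 7 of 13 alternatives and that of Sec61b in 3, whereas Tbc1d2 was called lower in 2, without the replicate 2 control and with probe sets averaged.

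**Figure D4:**
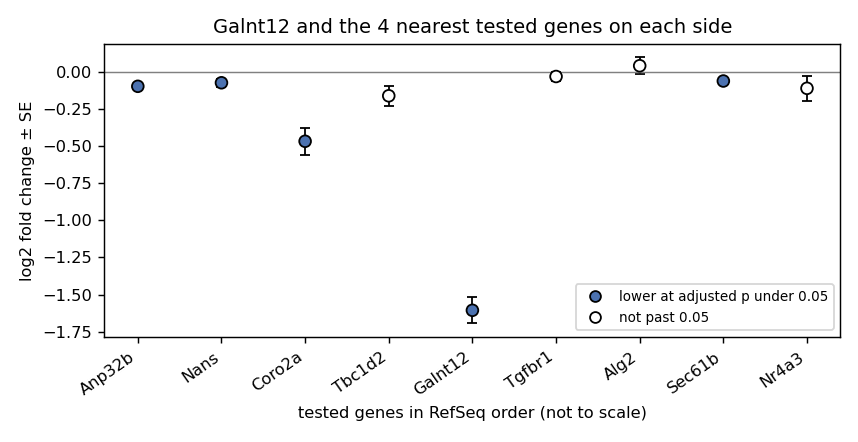
Log2 fold change with its SE for Galnt12 and the 4 nearest tested genes on each side, in gene order and not to scale; filled points were lower at an adjusted p under 0.05. Coro2a, at -0.47, is the lowest neighbour, and the other 7 lie between -0.16 and 0.04.

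The genes whose log2 intensities over the 6 arrays were most like those of Galnt12 were Cntd1, Bud31, Ctsh, Flt1 and Cdv3, with Pearson correlations of 0.9991 to 0.9996. All 6 points share the group difference, and 148 of 12794 genes reached a correlation over 0.99, so the order among them carries little. Ctsh, the lysosomal protease cathepsin H, had the largest change of the 5, with 109 ± 0.769 and 48.5 ± 3.7 (SD, n = 3 each), or -1.17 on the log2 scale (SE 0.06). Flt1, a receptor for VEGF, was at -0.51 (SE 0.04), and the other 3 were between -0.36 and -0.28. With its probe sets averaged, Cntd1 went from -0.28 to -0.11.

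Other genes came from 8 lists, 5 drawn up around the O-glycan pathway and 3 of other glycosylation and Golgi genes. The 5 lists also hold genes that act on other glycans, such as St6gal1. In all 98 genes were tested: 17.3% were called higher and 20.4% lower, near the 16.5% and 19.8% over all genes tested. Below, a gene said to rise or fall was called higher or lower, and each list count is to be read beside these shares. Their median was -0.01, and their largest log2 fold change in size was 0.52. None of the 3 tested members of the remaining Galnt genes was called (Galnt15, Galnt16 and Galnt18; 1 of them, Galnt18, had an unadjusted p under 0.05 in limma, the only tool run, at 0.19, SE 0.08). In 3 of the 13 alternatives 1 of the 3 was called, among them leaving out the replicate 1 control. The other 6 on the array, Galnt5, Galnt9, Galnt13, Galnt14, Galntl5 and Galntl6, lay under the filter.

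Of 15 genes listed for core branching and extension, 11 were tested, and of these 2 rose and 4 fell, with a median of 0.04. Gcnt1, which adds the core 2 branch to the product of C1galt1, read 65.8 ± 1.76 and 49.8 ± 2.11 (SD, n = 3 each) and fell by 0.40 on the log2 scale (SE 0.06, limma adjusted p = 9.06e-05). B3gnt2, which lengthens chains with N-acetylglucosamine, fell by 0.28 (SE 0.03) and B4galt6 by 0.14 (SE 0.03). The galactosyltransferase gene B4galt1 rose by 0.22 (SE 0.03) and B4galt4 by 0.25 (SE 0.08), the latter a call lost in 3 of 12 alternatives.

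Of 25 genes listed for sialic acid, fucose and sulfate capping, 18 were tested, and of these 5 rose and 1 fell, with a median of 0.02. St6gal1, which caps N-glycans with sialic acid, read 202 ± 3.62 and 291 ± 13.3 (SD, n = 3 each) and rose by 0.52 on the log2 scale (SE 0.04, limma adjusted p = 6.61e-08). Fut9, which makes the Lewis x fucose linkage, rose by 0.28 (SE 0.04), but averaging all its probe sets gave 0.09 and ended the call. St6galnac4, which sialylates core 1 glycans, rose by 0.34 (SE 0.05), and St3gal6 fell by 0.09 (SE 0.03), a call lost in 5 of 13 alternatives.

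Of 20 genes listed for supply of the sugar donors, 18 were tested, and of these 2 rose and 6 fell (median -0.05). Galt, of galactose metabolism, fell by 0.37 (SE 0.04), Uap1l1, a relative of the enzyme that makes UDP-GlcNAc, by 0.28 (SE 0.04) and Cmas, which activates sialic acid, by 0.14 (SE 0.03). Galk2, which can phosphorylate GalNAc, rose by 0.20 (SE 0.04), and Gfpt1, the entry to the hexosamine pathway, by 0.11 (SE 0.04), a call lost in 6 of 13 alternatives. None of 6 tested mucin genes was called (limma; 1 of them, Muc16, had an unadjusted p under 0.05; 1 was called without the intensity trend and 1 in the mean of all probe sets). Another 5, Muc1, Muc3, Muc4, Muc15 and Emcn, lay under the filter. Muc2, the main secreted mucin of the colon, read 12.8 ± 2.61 and 11.9 ± 1.15 (SD, n = 3 each), close to that filter.

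**Figure D5:**
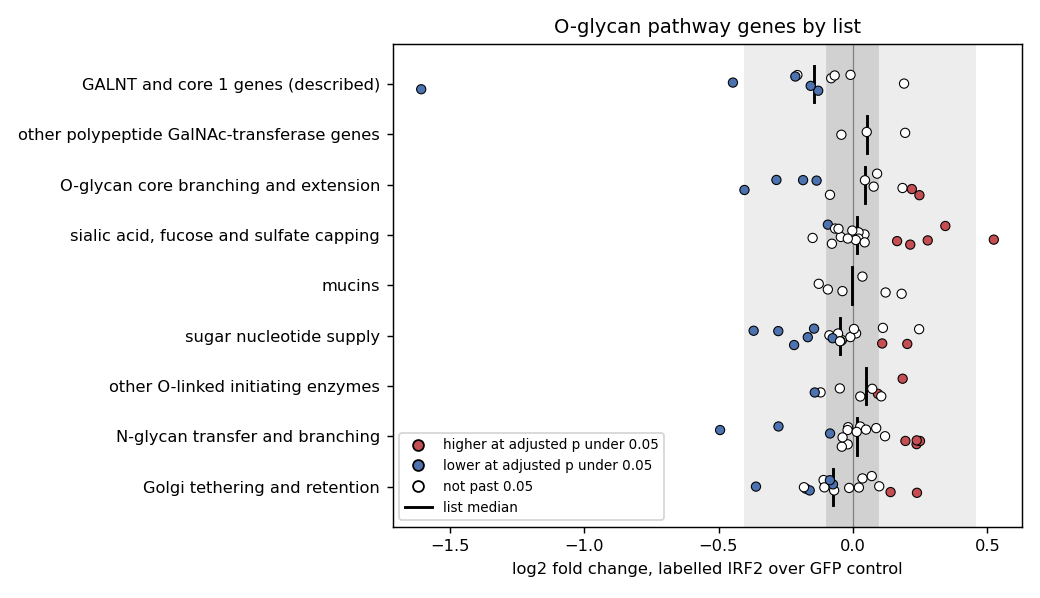
Log2 fold change of each tested gene, by list, with the 10 described genes in the top row; red and blue points passed an adjusted p of 0.05 in the 2 directions, black bars are list medians, and the dark and light bands hold the middle 50% and 95% of all genes tested. Galnt12, Galnt7, Gcnt1 and Man1a lie left of the light band, and St6gal1 lies right of it.

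Other glycosylation genes served for comparison. Of 8 tested enzymes that start other O-linked sugars, 2 rose (Pomt1, for O-mannose, by 0.18, SE 0.06, and Ogt, the cytoplasmic GlcNAc-transferase, by 0.09, SE 0.03) and Eogt fell by 0.14 (SE 0.05). These calls were not stable: 1 was left without the replicate 1 or the replicate 2 control, or without the intensity trend, and none without the replicate 3 array labelled IRF2. Of 17 N-glycan genes, 4 rose and 3 fell, Man1a, a Golgi mannosidase, by 0.49 (SE 0.06). Mgat5, Fut8 and Man2a1 rose by 0.25, 0.24 and 0.20 (SE 0.03 each), and Man2a2 and Stt3b fell by 0.28 and 0.09 (SE 0.05 and 0.02), calls that ended with probe sets averaged and without the trend, respectively. Of 17 genes for Golgi tethering and retention, 2 rose and 5 fell, with a median of -0.07. Cog8, Cog4 and Cog2, subunits of the complex that recycles Golgi glycosyltransferases, fell by 0.36, 0.16 and 0.17 (SE 0.05, 0.04 and 0.05), and the Golgi stacking gene Gorasp1 rose by 0.24 (SE 0.05) and the SNARE gene Stx5a by 0.14 (SE 0.03). The calls of Cog4 and Gorasp1 ended with all probe sets averaged.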

How the data were processed

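RNA of 6 samples, 3 per group, was measured on Affymetrix 3' expression arrays. The deposited table holds linear intensities of 45101 probe sets. Per the submitters' processing notes MAS5 was among the tools; its settings for background and scaling, which matter most for low values, are unknown here. Gene names came from the platform annotation in GEO (34945 of 45037 non-control probe sets had 1 symbol, 932 several and 9160 none), with symbols updated through a RefSeq table of GRCm38.p6 for 34741.

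A linear model of log2 intensity was fitted in R 4.3.3 (limma 3.58.1; lmFit, eBayes with an intensity trend), group as the only term, over 12795 genes (mean above the 40th percentile) and, separately, 27022 probe sets; residual degrees of freedom were 4. Gene SEs come from the first fit and those of single probe sets from the second, two-sided and Benjamini-Hochberg adjusted over all features. The fit was tested on simulated data. The number of arrays limits the precision. Named were all members, Irf2, up to 3 called genes per list and direction with the smallest p, 8 neighbours and the 5 most alike genes; Poc1b, Galnt15, Galnt16, Galnt18, Muc2, Muc16, C1galt1c1 and genes under the filter were added after their values were seen. The members and lists were chosen with earlier results of these data known. Alternatives were quantile normalization, 16 added before the log, no or a 60th percentile filter, no trend, mean of probe sets, replicate block and leaving out each array.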

Additional observations from a re-analysis of the deposited data

How the results depend on the processing

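Galnt12 and Galnt6 under the 60th percentile filter gave no value, nor did Galnt6 and single probe sets when probe sets were averaged. Genes called lay between 3800 and 4678 (4642 in the reported fit), and 27 to 37 of the pathway genes were called. Of the 10 genes, 3 were called in the mean of all probe sets, which takes in dim probe sets, and 5 to 7 with 1 array left out. Called probe sets of the 10 genes ran from 6 to 11 with 1 array left out. Galnt12, Galnt7 and Galnt3 kept direction and call wherever tested in the gene-level fit; in the fit of single probe sets the call of Galnt3 was lost without the replicate 1 array labelled IRF2. The log2 fold change of Galnt1 turned to 0.00931 with arrays quantile normalized and 0.0462 with its probe sets averaged, and ran from -0.0292 to 0.0108 with 1 array left out. The log2 fold change of Alg2 turned to -0.00804 with its probe sets averaged and ran from -0.000813 to 0.0897 with 1 array left out. The cause of these moves was not tested. The groups share replicate numbers 1 to 3, but deviations of same-numbered arrays correlated at 0.07, -0.08 and -0.0008, and not every array correlated best with its own number, so the numbers were not taken as pairs. With the replicate block, 5 genes and 11 probe sets of the set and 37 pathway genes were called. Values near the filter, as for Galnt6 and Galnt12 on the arrays labelled IRF2, are limited by signal over background.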
